A study of Homo sapiens with 8 samples.

Results

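The mRNAs of 10 abundant cytoskeletal genes were examined in RNA immunoprecipitates of ribosomal protein S6 (RPS6) and in the matching inputs. The genes were chosen by symbol from the 57756 genes listed in both expression tables. They comprised the 2 cytoplasmic actins ACTB and ACTG1, the 3 alpha-tubulins TUBA1A, TUBA1B and TUBA1C, the 2 beta-tubulins TUBB and TUBB4B, and the 3 small actin-binding proteins TMSB10, CFL1 and PFN1. All 10 were listed and passed the minimum mean of 10 estimated counts over the libraries.

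RNA immunoprecipitation sequencing (RIP-seq) isolates a protein with an antibody and sequences the RNA that comes with it. RPS6 is a protein of the small ribosomal subunit, and the study used it to look for RNAs, above all small nucleolar RNAs, that accompany ribosomes in cancer cells. Each of 4 lines gave 1 RPS6 RIP library and 1 input library, 8 libraries in all, paired here by cell line. The lines were Hep3B (hepatocellular carcinoma), HCT116 (colorectal carcinoma), DU145 (prostate carcinoma) and SW1990 (pancreatic carcinoma). No library had a replicate within its line, so the 4 lines were the only repeated units and no test was made inside a line. The labels state no treatment, and the comparison was with input and not with a control antibody. The labels of the liver pair disagree, with 3B in the titles and Huh7 in the field for the cell line, and the pair is called Hep3B here. The 4 liver markers ALB, AFP, APOA1 and TTR were each at 1 FPKM or more in both libraries of that pair, with summed levels of 5692 FPKM in the input and 10582 FPKM in the RIP, against at most 3.87 FPKM in any other library. They mark a liver line but do not tell Hep3B from Huh7. The marker lists of the other lines did not single out their line: those of colon summed highest in SW1990, 1 of 3 prostate markers reached 1 FPKM in DU145, and only KRT19 of 4 pancreas markers did so in SW1990.

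Actin and tubulin are the subunits of actin filaments and microtubules, and their mRNAs are among the most abundant of a dividing cell. Free actin monomers are bound by thymosins such as TMSB10 and by profilin (PFN1), which hands them to growing filaments, while cofilin (CFL1) severs older filaments. Free tubulin dimers lower the stability of tubulin mRNAs while these are being translated, a feedback called tubulin autoregulation, and the transcription factor SRF with its cofactors MKL1 and MKL2 couples actin gene transcription to the pool of free actin.

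Depth, as fragments recovered from the deposited counts, ran from 35796163 to 54209603 in the inputs and from 34630364 to 42610074 in the RIP libraries. The lowest member count was 1749 fragments (TUBA1A, Hep3B input), with a counting SD of 2.39%, and the highest was 459737 fragments (ACTB, Hep3B RIP). Together the 10 genes took 0.923% to 1.54% of the fragments of an input and 1.29% to 2.73% of those of a RIP library. This share was higher in the RIP in each line, at 2.73% against 1.17% in Hep3B, 1.83% against 1.54% in HCT116, 1.29% against 0.961% in DU145 and 1.503% against 0.923% in SW1990. The widest 95% Wilson interval of such a share spanned 0.0109 percentage points, which covers counting error only. In these bulk libraries, a change in all cells cannot be told apart from one in some of the cells.

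Both actins and all 5 tubulins were higher in the RPS6 RIP than in the input, and the 3 small actin-binding proteins were not called in either direction. In edgeR's quasi-likelihood test with the cell line as a block, run over 19921 genes, 7 of the 10 members passed an adjusted p of 0.05 as higher and 0 as lower, where 26.5% of all tested genes were called higher and 24.9% lower. Folds of the 7 ran from 2.004 (TUBA1C) to 3.41 (TUBB4B), beside a median log2 fold change of -0.05 over all tested genes and 0.13 over 13564 protein-coding genes. Levels are given in FPKM, fragments per kilobase of gene and depth of the library, which can be compared between genes. Hep3B and HCT116 were scaled in one table and DU145 and SW1990 in another, so levels set across these pairs of lines also carry the scaling.

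**Figure D1:**
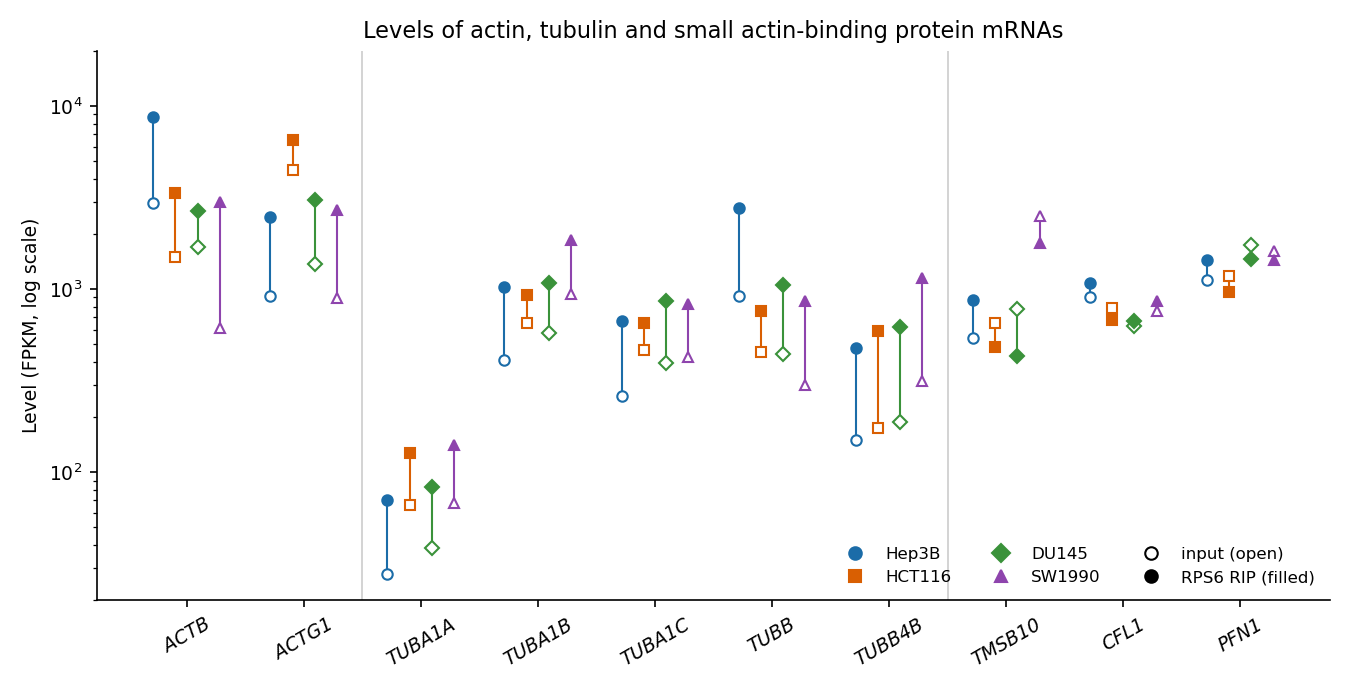
Level of each member in FPKM on a log axis, with open symbols for the input and filled symbols for the RPS6 RIP of the same cell line, joined by a line (1 library per symbol). For all 7 actin and tubulin genes the filled symbol lies above the open one in 4 of 4 lines, while TMSB10, CFL1 and PFN1 have lines running both ways.

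ACTB encodes beta-actin, the main non-muscle actin. Its input level was 2934 FPKM for Hep3B, 1490 FPKM for HCT116, 1702 FPKM for DU145 and 610 FPKM for SW1990. Its RIP level was 8743, 3335, 2658 and 2973 FPKM in the same order. The RIP library was the higher one in each line, but the DU145 RIP level lay under the Hep3B input level, so the groups overlapped. The log2 ratio of RIP to input, each FPKM plus 1, was highest in SW1990 (2.28), the line with the lowest input level, and lowest in DU145 (0.64), with a mean of 1.42 ± 0.69 (SD, n = 4 lines). ACTB rose 2.70-fold in the RIP (log2 fold change 1.43, SE 0.31, edgeR adjusted p = 0.00302), and was not called by limma on log2(FPKM + 1) (1.42, limma adjusted p = 0.0624). Among protein-coding genes it ranked between 2 and 10 in the RIP libraries and between 4 and 133 in the inputs.

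ACTG1 encodes gamma-actin, the other cytoplasmic actin. Its input level was 919 FPKM for Hep3B, 4478 FPKM for HCT116, 1362 FPKM for DU145 and 890 FPKM for SW1990, and its RIP level was 2488, 6515, 3077 and 2696 FPKM in the same order. HCT116 was far above the other lines in both groups, and its input exceeded 3 of the 4 RIP libraries. ACTG1 rose 2.31-fold (log2 fold change 1.21, SE 0.27, edgeR adjusted p = 0.00396), with log2 ratios of FPKM between 0.54 in HCT116 and 1.60 in SW1990 (mean 1.19 ± 0.47, SD, n = 4). It was not called by limma on log2(FPKM + 1), with an adjusted p of 0.0868. Its rank among protein-coding genes ran from 1 to 9 in the RIP libraries and from 4 to 105 in the inputs.

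The log2 ratios of the tubulins spread less between lines than those of the actins, with SDs of 0.09 to 0.39 against 0.47 and 0.69, a difference given no test. TUBB4B, a widely expressed beta-tubulin, stood at 149, 175, 188 and 314 FPKM in the inputs of Hep3B, HCT116, DU145 and SW1990, and at 476, 589, 624 and 1149 FPKM in the RIP libraries. Every RIP library was above every input. Its log2 ratios lay between 1.67 and 1.87 (mean 1.75 ± 0.09, SD, n = 4), the smallest SD of the 10 members, and it had the highest fold of them, 3.41 (log2 fold change 1.77, SE 0.21, edgeR adjusted p = 7.12e-05). It was also the one member still called when the cell line was left out as a block (edgeR adjusted p = 0.0231); without the block the other 6 had edgeR adjusted p-values from 0.0657 (TUBA1C) to 0.485 (ACTG1).

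TUBB, the most abundant beta-tubulin of many cultured cells, stood at 920, 450, 440 and 299 FPKM in the same inputs and at 2774, 754, 1046 and 865 FPKM in the RIP libraries. Hep3B had the highest level in both groups, and its input was above 2 of the 4 RIP libraries. TUBB rose 2.14-fold (log2 fold change 1.10, SE 0.24, edgeR adjusted p = 0.00315), with log2 ratios of FPKM from 0.74 in HCT116 to 1.59 in Hep3B (mean 1.28 ± 0.39, SD, n = 4).

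The alpha-tubulins pair with beta-tubulins in the dimer, and TUBA1B was the most abundant of the 3 in every library. Its levels were 409, 655, 578 and 939 FPKM in the inputs and 1022, 922, 1074 and 1851 FPKM in the RIP libraries, with SW1990 highest in both groups and its input above the HCT116 RIP. TUBA1B rose 2.01-fold (log2 fold change 1.01, SE 0.24, edgeR adjusted p = 0.00527). TUBA1C was measured at 262, 464, 393 and 426 FPKM in the inputs and at 671, 653, 860 and 824 FPKM in the RIP libraries, without overlap, and rose 2.004-fold (log2 fold change 1.003, SE 0.22, edgeR adjusted p = 0.00300). TUBA1A, best known from developing neurons, had the lowest level of the 10 members in every library, at 27.7, 65.8, 38.5 and 68.0 FPKM in the inputs and 70.5, 126, 82.4 and 140 FPKM in the RIP libraries. All RIP values of TUBA1A exceeded all inputs, and it rose 2.17-fold (log2 fold change 1.12, SE 0.18, edgeR adjusted p = 4.02e-04). Of the 7 called genes, 5 had their lowest log2 ratio in HCT116. ACTB had it in DU145 and TUBB4B in Hep3B.

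The small actin-binding proteins gave RIP levels in FPKM on both sides of their inputs. TMSB10, which sequesters actin monomers, was measured at 538, 651, 777 and 2512 FPKM in the inputs of Hep3B, HCT116, DU145 and SW1990 and at 866, 485, 433 and 1789 FPKM in the RIP libraries. SW1990 stood far above the other lines in both groups, and the RIP was above the input in Hep3B only (log2 ratio 0.68, against -0.42, -0.84 and -0.49). Over the 4 lines TMSB10 did not pass the test (log2 fold change -0.29, SE 0.27, edgeR adjusted p = 0.392). Without the Hep3B pair it did, as lower (log2 fold change -0.71, edgeR adjusted p = 0.0272).

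CFL1, non-muscle cofilin, ranged from 630 to 909 FPKM in the inputs and from 667 to 1079 FPKM in the RIP libraries. Its log2 ratios of FPKM were 0.25, -0.22, 0.08 and 0.17, and its log2 fold change was -0.04 (SE 0.20, edgeR adjusted p = 0.894). Scaled to depth alone, CFL1 was lower in the RIP in each line. PFN1, profilin, was measured at 1123, 1182, 1735 and 1604 FPKM in the inputs and at 1449, 959, 1459 and 1440 FPKM in the RIP libraries. The RIP level of PFN1 was above the input in Hep3B (log2 ratio 0.37) and under it in the other lines (-0.30, -0.25 and -0.16), and the test gave a log2 fold change of 0.04 (SE 0.24, edgeR adjusted p = 0.901). Values this close to 0 changed sign with the setting for both CFL1 and PFN1, and a p that misses the threshold does not show that input and RIP were equal.

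**Figure D2:**
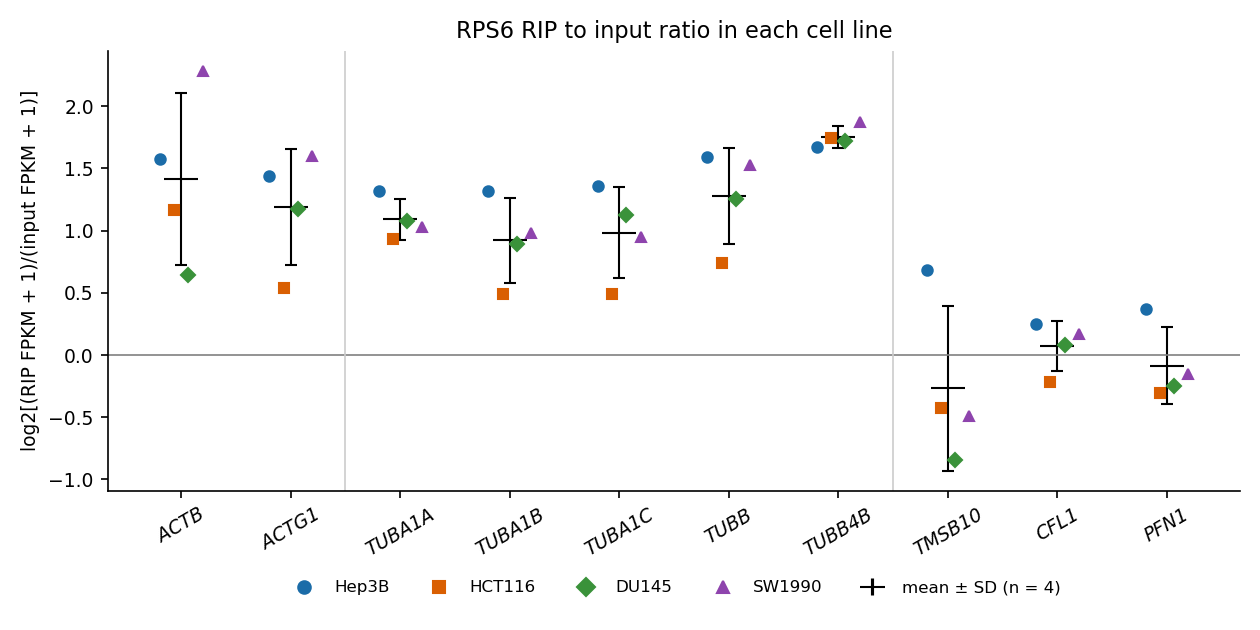
Log2 ratio of RIP to input for each member and cell line, each FPKM plus 1, with the mean and SD over the 4 lines as black bars. Actins and tubulins lie above 0 in every line, TUBB4B with the least spread (1.75 ± 0.09), and the small actin-binding proteins lie around 0 with Hep3B highest.

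Averaged over the genes of a family, the log2 ratio of the actins was 1.51 for Hep3B, 0.85 for HCT116, 0.91 for DU145 and 1.94 for SW1990 (mean 1.30 ± 0.52, SD, n = 4). That of the tubulins was 1.45, 0.88, 1.21 and 1.27 (mean 1.20 ± 0.24). That of the small actin-binding proteins was 0.43, -0.31, -0.34 and -0.16 (mean -0.09 ± 0.36, and -0.27 without Hep3B). The actins exceeded the small actin-binding proteins by 1.07, 1.16, 1.25 and 2.10 within the lines (mean 1.396 ± 0.47) and the tubulins exceeded them by 1.02, 1.19, 1.55 and 1.43 (mean 1.30 ± 0.24), in 4 of 4 lines each. Actins and tubulins differed from each other by 0.06, -0.03, -0.30 and 0.67, which is within the spread between lines (mean 0.10 ± 0.41). Such scores over chosen genes were given no test, and an exact sign-flip test over 4 lines cannot go below p = 0.125.

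Hep3B was the one line in which all 3 families were higher in the RIP, with summed FPKM up 2.92-fold for the actins, 2.84-fold for the tubulins and 1.32-fold for the small actin-binding proteins. In SW1990 the corresponding folds were 3.78, 2.36 and 0.838, in DU145 they were 1.87, 2.25 and 0.814, and in HCT116 they were 1.65, 1.68 and 0.810. The order of the members within a library shifted with this. The most abundant of the 10 was ACTB in the Hep3B input, ACTG1 in the HCT116 input, PFN1 in the DU145 input (1735 FPKM, closely followed by ACTB at 1702 FPKM) and TMSB10 in the SW1990 input. In the RIP libraries it was an actin in each line, ACTB in Hep3B and SW1990 and ACTG1 in HCT116 and DU145.

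Within the families, the share of TUBB4B in the sum of the 2 beta-tubulin members was higher in the RIP in every line. Other beta-tubulins, such as TUBB6 and TUBB3, are not in this sum. TUBB4B made up 13.9%, 28.0%, 30.01% and 51.2% of the summed FPKM of the 2 beta-tubulins in the inputs of Hep3B, HCT116, DU145 and SW1990, and 14.6%, 43.9%, 37.4% and 57.1% in the RIP libraries. The step was upward in 4 of 4 lines, by 7.45 ± 6.29 percentage points (SD), with the largest step in HCT116 (15.9) and the smallest in Hep3B (0.709). From estimated counts the steps were 2.58 to 14.99 points.

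Among the 3 alpha-tubulin members the steps were small. TUBA1B held 55.3% to 65.5% of them in the inputs and 53.3% to 65.8% in the RIP libraries, a mean step of -1.37 ± 1.83 points. TUBA1C held 29.7% to 39.2% and 29.3% to 42.6%, and TUBA1A held 3.81% to 5.55% and 3.997% to 7.43%. The share of ACTB among the actins went from 76.2% to 77.8% in Hep3B, from 25.0% to 33.9% in HCT116, from 55.5% to 46.3% in DU145 and from 40.7% to 52.4% in SW1990, so it fell in 1 line and rose in the others (mean step 3.29 ± 9.35 points). From estimated counts, which are not per length, ACTB held 52.2% in the SW1990 input and 60.9% in the DU145 RIP, so the order of the 2 actins in these libraries depends on the unit.

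**Figure D3:**
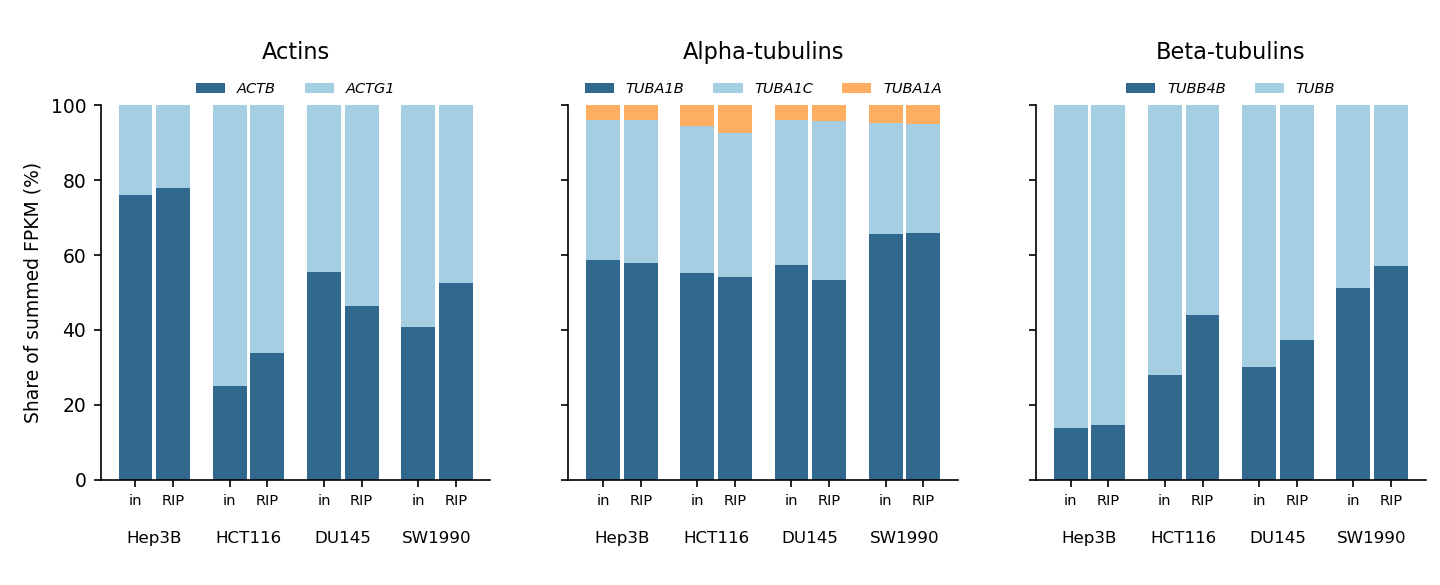
Share of each isotype in the summed FPKM of the member actins, alpha-tubulins or beta-tubulins (%), other genes of these families left out. Stacked bars from 0 to 100 show the input (in) and the RPS6 RIP of each cell line, 1 library per bar. The share of TUBB4B among the member beta-tubulins is higher in the RIP in 4 of 4 lines, while TUBA1B stays between 53.3% and 65.8% of the member alpha-tubulins in all 8 libraries.

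The promoters of 4 members are shown, 1 actin, 1 tubulin and 2 small actin-binding proteins, so that each family is represented. RIP does not measure a promoter, so the letters describe the genes and not the result. The 250 bases before the transcription start come from RefSeq (GRCh38.p14), from a table with 12 entries for 9 of the 10 members. ACTB was not searched. Capitals mark the CArG box (the binding motif of SRF), CCAAT and TATATAA, each searched on both strands. The regions are chr17:81512800-81513049 (minus strand) for ACTG1, chr9:137241037-137241286 (plus strand) for TUBB4B, chr2:84905406-84905655 (plus strand) for TMSB10 and chr17:4948531-4948780 (minus strand) for PFN1.
ACTG1: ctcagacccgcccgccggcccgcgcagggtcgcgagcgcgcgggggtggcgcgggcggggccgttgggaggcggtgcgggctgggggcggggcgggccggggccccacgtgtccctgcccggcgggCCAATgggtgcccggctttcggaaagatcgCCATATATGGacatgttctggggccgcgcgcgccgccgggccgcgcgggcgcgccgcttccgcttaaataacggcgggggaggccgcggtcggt
TUBB4B: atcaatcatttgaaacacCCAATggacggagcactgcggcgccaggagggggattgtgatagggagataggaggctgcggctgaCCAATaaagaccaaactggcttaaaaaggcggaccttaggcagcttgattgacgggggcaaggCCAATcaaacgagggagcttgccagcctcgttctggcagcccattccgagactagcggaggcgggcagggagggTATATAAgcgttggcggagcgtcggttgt
TMSB10: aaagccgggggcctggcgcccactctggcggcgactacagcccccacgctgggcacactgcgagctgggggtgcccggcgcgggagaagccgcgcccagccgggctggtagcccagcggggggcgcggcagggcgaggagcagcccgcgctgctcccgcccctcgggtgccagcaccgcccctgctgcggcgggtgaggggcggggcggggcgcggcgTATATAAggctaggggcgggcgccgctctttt
PFN1: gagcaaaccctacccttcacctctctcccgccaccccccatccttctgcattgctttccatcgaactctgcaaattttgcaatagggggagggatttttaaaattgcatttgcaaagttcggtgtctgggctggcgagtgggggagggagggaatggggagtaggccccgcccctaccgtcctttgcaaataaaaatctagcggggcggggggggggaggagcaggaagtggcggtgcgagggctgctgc
ACTG1 held a CArG box at position -94 from the start and a CCAAT at -124, and no other of the 12 entries, which do not include ACTB, held a CArG box. TUBB4B held CCAAT at -232, -166 and -103 and TATATAA at -29. TMSB10 held TATATAA at -32, and PFN1 held none of the 3 motifs. These motifs did not separate the families: CFL1 held CCAAT at -239 and -233, TATATAA was also in 1 entry of TUBA1C, and TUBA1B, like PFN1, held none of the 3. The CArG box was found in 1.16% of all 35116 promoters of this length, CCAAT in 32.0% and TATATAA in 2.42%.

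Several members share sequence or a counted locus with other genes, which bears on how their reads were assigned. In the deposited tables (hg19), TUBA1A and TUBA1C carry the same locus, chr12:49578578-49667114, together with RP11-161H23.5, an overlapping gene with a mean of 454 FPKM that was itself called higher (log2 fold change 0.64, edgeR adjusted p = 0.0191). TUBB carries chr6:30687977-30693203 with XXbac-BPG252P9.9 (mean 287 FPKM, log2 fold change 1.27, edgeR adjusted p = 7.07e-04). The split of reads between such neighbours is uncertain. All genes of a locus were also summed before the fit, a setting chosen after the data were seen. The loci of all 7 genes were still called higher, with TUBA1A and TUBA1C counted together. Log2 fold changes were 1.33 for ACTB, 1.10 for ACTG1 and 0.82 for the shared TUBA1A and TUBA1C locus. They were 0.90 for TUBA1B, 1.005 for TUBB and 1.66 for TUBB4B. The 57 pseudogenes named after members took 0.174% to 0.327% of the members' counts, and at most 1.72% for any parent (TUBB).

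Gene length moved with the RIP to input change over the whole table. The counted length of a gene was taken as its estimated counts per FPKM and set relative to ACTB. In 8 bands of about 1426 protein-coding genes each, from the shortest to the longest, the median log2 fold change was -0.82, -0.25, 0.05, 0.21, 0.25, 0.27, 0.50 and 0.97. The shortest band ended at 0.573, under the highest library value of PFN1 and of CFL1. By their medians, TMSB10 (0.248), CFL1 (0.452) and PFN1 (0.546) all lay in this band, as did TUBA1C (0.488). All 4 had a log2 fold change above that band's median, and TUBA1C was called higher, as were 11.2% of the genes of the band. The other actins and tubulins had counted lengths between 0.765 and 1.12. Length therefore moved together with the contrast between the families, and its part in the result was not tested. Summed over all genes, FPKM was also lower in the RIP libraries (620262 to 690141) than in the inputs. The input sum was 1659970 in Hep3B and 884796 to 981929 in the other lines. The part of this in the members' ratios, those of Hep3B among them, was not tested.

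**Figure D4:**
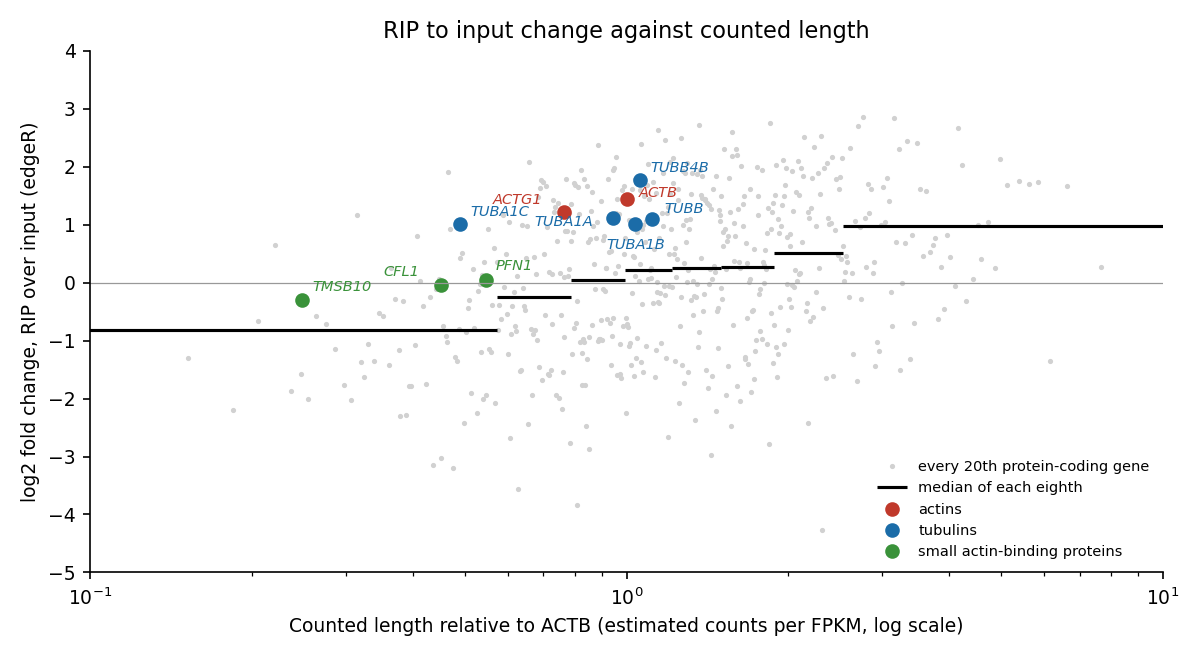
edgeR log2 fold change of RIP over input against counted length relative to ACTB, on a log axis. Grey points are every 20th protein-coding gene by length and black bars the medians of 8 length bands, which climb from -0.82 to 0.97; coloured points are the members, with the 3 small actin-binding proteins and TUBA1C in the shortest band.

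The rest of the actin and tubulin families was read from lists of further cytoskeletal genes. Of these 103 tested genes, 33 (32.0%) were higher in the RIP, 32 (31.1%) lower and 38 not called, with a median log2 fold change of 0.08. Over all tested genes 26.5% were called higher and 24.9% lower, and the counts of each list stand against these shares. The shares changed with counted length. In the shortest band 11.2% of genes were higher and 52.2% lower, and in the longest band 56.7% were higher and 12.6% lower. The lists were not matched for length, and its part in their counts was not tested. Of the other actins, most of which belong to muscle and are scarce in these lines, 2 of 3 tested genes were higher. ACTA2, at most at 24.9 FPKM, had a log2 fold change of 1.41 (edgeR adjusted p = 0.00319), and was not called without SW1990 (adjusted p = 0.0626 in edgeR) or by limma on log2(FPKM + 1) (0.0555). ACTA1, at most at 2.40 FPKM, had one of 1.61 (edgeR adjusted p = 0.0446), a call lost without Hep3B, HCT116 or DU145 (edgeR adjusted p = 0.208, 0.0976 and 0.135). ACTC1, at most at 3.33 FPKM, was not called (1.79, edgeR adjusted p = 0.138). Of 15 other tubulins, 7 were higher, 3 lower and 5 not called (median 0.91). The most abundant were TUBB6, at 21.7 to 218 FPKM in the inputs and 49.2 to 408 FPKM in the RIP libraries (log2 fold change 1.03, edgeR adjusted p = 7.38e-04), and TUBB3, at 23.5 to 123 and 84.9 to 280 FPKM (log2 fold change 1.46, edgeR adjusted p = 1.69e-04).

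Of 10 other small actin-binding proteins tested, 1 was higher, 5 lower and 4 not called (median -1.41). TMSB4X, the most abundant thymosin besides TMSB10 here, had 228 to 1095 FPKM in the inputs and 33.1 to 290 FPKM in the RIP libraries (log2 fold change -2.49, edgeR adjusted p = 2.92e-05). CAP1, a larger cyclase-associated protein that recycles actin monomers, was the one called higher (log2 fold change 0.96, edgeR adjusted p = 0.00176).

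Proteins that act on the filament divided by list. Of 11 bundling and crosslinking proteins, 8 were higher and 0 lower (median 2.14), led in abundance by FLNA (filamin A, log2 fold change 3.39) and ACTN4 (alpha-actinin, 2.33). All 4 tropomyosins, which coat filaments, were lower (median -1.27), including TPM4 (-1.08) and TPM3 (-1.43). Of the 9 genes of the Arp2/3 complex, which branches filaments, 1 was higher and 5 lower (median -0.77). ARPC3 was among the latter (-2.02), and ARPC2 missed the threshold (-0.53, edgeR adjusted p = 0.0550), but was called lower under 5 alternatives, among them DESeq2 (adjusted p = 0.0237) and the fit without Hep3B (-0.76, edgeR adjusted p = 0.0207). Of 9 capping and severing proteins, 4 were higher and 2 lower (median 0.61), with FLII at 2.62 and CAPZB at 0.61 (edgeR adjusted p = 0.0283). The call of CAPZB was lost without Hep3B (0.38, edgeR adjusted p = 0.168), HCT116 (0.0921) or DU145 (0.0502), and with TMM on protein-coding genes (0.0787).

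Of the machinery that folds actin and tubulin, prefoldin was lower and the rest was mixed. All 6 prefoldin subunits, which deliver nascent actin and tubulin to the chaperonin, were lower (median -2.50), PFDN5 by a log2 fold change of -2.61 and PFDN1 of -2.51. Of the 8 subunits of the chaperonin CCT, 2 were higher, 1 lower and 5 not called (median 0.04). CCT7 was among the higher ones (1.16), and TCP1 was not called (0.21, edgeR adjusted p = 0.457). The 6 tubulin folding cofactors held 1 higher and 1 lower gene, the latter TBCA (-3.89), while TBCB was not called (0.04, edgeR adjusted p = 0.866).

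Of 6 genes tied to tubulin autoregulation, 1 was higher and 2 lower (median 0.08). The lower ones were NACA (-2.24) and BTF3 (-1.49), subunits of the complex that binds nascent chains at the ribosome. Of 10 microtubule-associated proteins, 4 were higher and 2 lower (median 0.45), among them MAP1S (2.97) and the destabilizer STMN1 (-1.69). SRF (1.35) and its cofactor MKL1 (2.55) were called higher, and MKL2 was not called (0.39, edgeR adjusted p = 0.147). Of the zipcode-binding proteins, which bind a localization element of beta-actin mRNA, IGF2BP3 was lower (-0.94, edgeR adjusted p = 0.0203), a call lost without DU145 (-0.56, edgeR adjusted p = 0.101) and in both limma fits (limma adjusted p = 0.158 and 0.144). IGF2BP2 (-0.00, edgeR adjusted p = 0.999) and IGF2BP1 (0.08, edgeR adjusted p = 0.844) were not called.

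**Figure D5:**
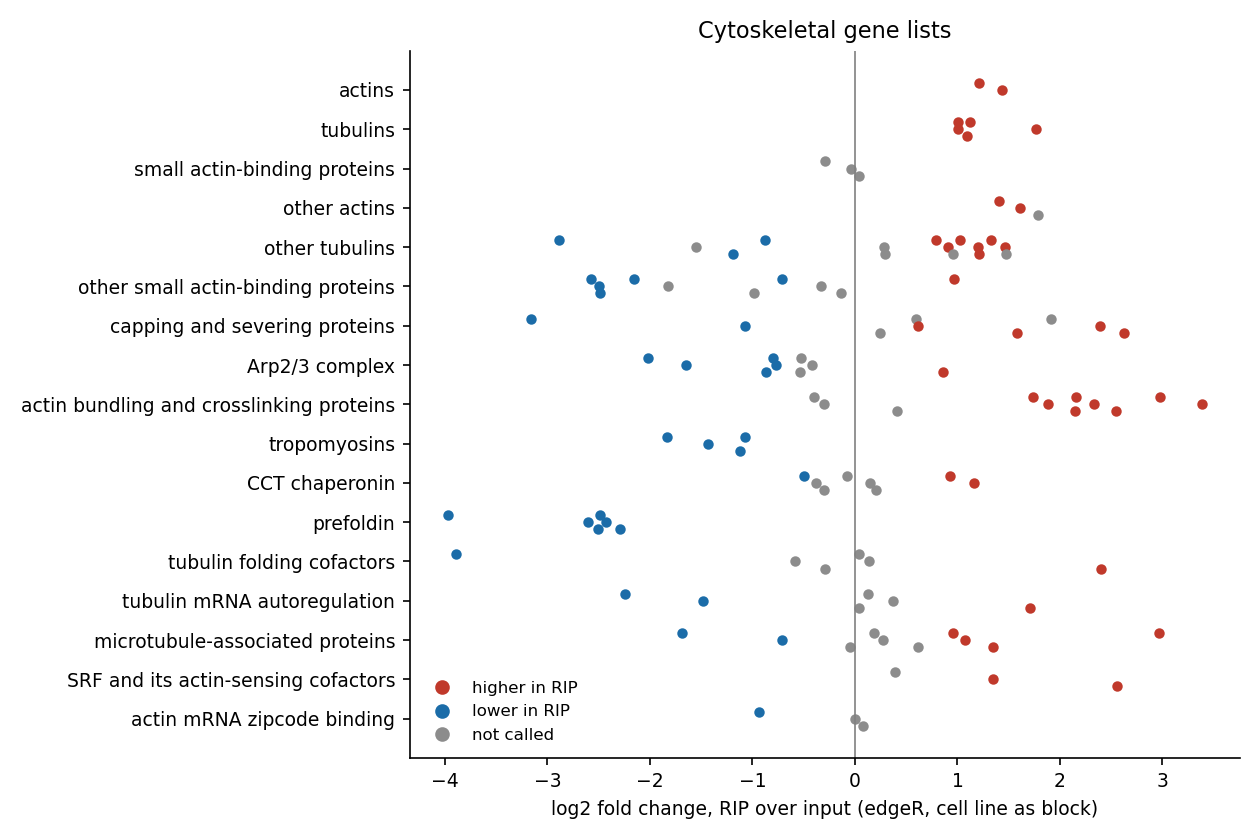
edgeR log2 fold change of RIP over input for every tested gene of the member families (top 3 rows) and of 14 further cytoskeletal lists, coloured by call at an adjusted p of 0.05; vertical offsets within a row only separate points. The 7 actin and tubulin members are all called higher, prefoldin (6 of 6) and tropomyosins (4 of 4) are all called lower, and the small actin-binding members lie near 0.

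The genes most like 3 of the members in pattern were found by Pearson correlation of log2(FPKM + 1) over the 8 libraries, among 9073 genes with a mean of at least 10 FPKM, as a description with no test. They were XXbac-BPG252P9.9 (0.976), STRADA (0.973) and ACOX3 (0.972) for ACTB, TEAD4 (0.977), TOMM40 (0.974) and BIN1 (0.974) for TUBA1B, and ZNF544 (0.971), PXMP2 (0.949) and ZNF623 (0.949) for TMSB10. The 8 libraries share cell lines in pairs, so the points are not independent.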

How the data were processed

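RNA of 4 RPS6 RIP and 4 input libraries (stranded total RNA kit) was examined. Per the submitters' processing notes, CASAVA 1.8 and TopHat2 2.0.9 were used with hg19. The tool that counted fragments and its annotation are not given in the sources used here. The FPKM that the authors deposited is normalized for length and depth, in 2 separate tables. Beside it the authors deposited an estimated count per gene, scaled by 1 factor per library and not always whole, while the tests had been planned for raw counts. The deposited fold changes, p-values and q-values of single lines were not used. Fragments were recovered by dividing counts by their common step. Between 80.9% and 92.1% of values came out whole within 0.01.

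Estimated counts were rounded and tested with edgeR 4.0.16 (R 4.3.3): quasi-likelihood test, TMM, cell line as block, a minimum mean of 10 counts per gene, Benjamini-Hochberg adjustment and a threshold of 0.05. The SE is the log2 fold change divided by the root of its F statistic. The procedure was tested on simulated data with changes larger than those of the members, which does not show how it does at their size. The cell line pairs each RIP with its input by design. Deviations from the group means correlated at r = 0.80 to 0.87 within pairs and at -0.44 to -0.01 across them. Such deviations cancel out over the lines of a group. This pushes the values across pairs down, so the contrast is no test of the pairing. Ratios per line used FPKM + 1. Where a symbol was listed more than once, as TUBB3 was, the entry with the highest mean FPKM was used. Protein-coding genes were recognized by RefSeq symbol (17755 matched).

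Alternatives were DESeq2 1.42.0, limma 3.58.1 on FPKM, other count minimums and TMM factors, no block, and each line left out. Recovered fragments and locus sums were added after the values were seen. All members were named, with the 2 most abundant genes of each further list and all genes of lists with 3 or fewer tested. The members and lists were chosen with earlier results of these data known. The cell lines are the only repeats, so p-values rest on the spread of the RIP to input difference between lines. edgeR estimates this spread partly from all genes. The SE and p of a gene therefore do not measure its own spread alone. TUBB4B had an SE of 0.212, beside an SD of its log2 ratios of 0.0852. With 1 library per group and line, the spread between lines also holds the noise of single libraries.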

Additional observations from a re-analysis of the deposited data

Results flagged for a closer look

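Sets of 4 values were formed from the level in the inputs, the level in the RIP libraries and the log2 ratio of each member. In 7 of 30 sets 1 cell line stood apart from the other 3, with a gap past Dixon's 95% limit. All 7 were levels and none was a log2 ratio. Chance passes this limit in about 1 of 20 sets of normal values. Levels entered as FPKM without a log, where a high value stands apart more easily. The 7 of 30 can therefore not be set against that rate. ACTB and TUBB were far above the other lines in the Hep3B RIP, at 8743 and 2774 FPKM. ACTG1 was far above them in HCT116, at 4478 FPKM in the input and 6515 FPKM in the RIP. TUBA1B stood out in the SW1990 RIP (1851 FPKM) and TMSB10 in the SW1990 input (2512 FPKM). PFN1 was lowest in the HCT116 RIP, at 959 FPKM. Each value is 1 library.

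The small actin-binding proteins had log2 ratios of RIP to input of both signs between lines: from 0.68 in Hep3B to -0.84 in DU145 for TMSB10, from 0.25 in Hep3B to -0.22 in HCT116 for CFL1, and from 0.37 in Hep3B to -0.30 in HCT116 for PFN1. With 1 library per group and line, the difference between lines was not tested.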

How the results depend on the processing

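Without the replicate block for the cell line, which pairs the libraries, the calls over all genes were 1427 higher and 1344 lower (5282 and 4960 with it), 1 member (TUBB4B) stayed higher, and 8 and 16 genes of the other lists were higher and lower (33 and 32 with it). With one line left out, 7 members were higher each time and 0 to 1 lower, the one being TMSB10 without Hep3B (-0.71). Over the 19325 to 19987 genes tested in these fits, 4448 to 4808 were higher and 4084 to 5083 lower. limma on log2(FPKM + 1) did not call ACTB and ACTG1, and on log2(FPKM + 0.1) it did not call ACTG1. The mean tubulin ratio was 0.85 from counts scaled to depth alone (1.20 from FPKM), and that of the small actin-binding proteins was -0.44 (-0.09), and -0.27 without Hep3B. No value that turned its sign was called. CFL1 (-0.04) came to 0.0711 in both limma fits, 0.0118 without HCT116 and 0.0354 with locus sums. PFN1 (0.04) came to -0.0079 with no minimum on counts, -0.0113 with a minimum of 50, -0.11 with TMM on protein-coding genes, -0.0850 in both limma fits, -0.24 without Hep3B and -0.0730 with locus sums. TBCB (0.04) came to -0.0060, -0.0103 and -0.10 under the same 3 edgeR settings and to -0.0841 and -0.0737 without Hep3B and without DU145. IGF2BP2 (-0.00) came to 0.13 without the block, 0.0125 with DESeq2, 0.23 in both limma fits and 0.16 without DU145. IGF2BP1 (0.08) came to -0.0324 with DESeq2, -0.0448 with TMM on protein-coding genes, and -0.32, -0.0086 and -0.0499 without Hep3B, HCT116 and DU145. The cause of these turns was not tested. The median of all genes moved from -0.05 to -0.60 with no minimum on counts, to -0.20 with TMM on protein-coding genes and to 0.08 and 0.10 in the limma fits. Depth is no limit for the members, whose counting SD was at most 2.39%. The number of lines is.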
